A study of Mus musculus with 8 samples.

Results

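Ribosomal proteins build the large (Rpl) and small (Rps) subunits of the ribosome, and each is made from 1 or a few intron-containing genes with very abundant messenger RNA. Over evolution these messengers were often copied back into the genome by reverse transcription, which leaves processed pseudogenes: intronless copies, named after the parent gene with the suffix -ps. Most copies lack the parent's promoter, and many stay so close to the parent in sequence that a short read can match both places.

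The count tables named 216 such copies among 27710 gene rows. The 122 described here are those with at least 20 counts summed over the 8 libraries, so their number and their counts were chosen by level and are given as a description. Just inside this limit stood Rpl19-ps9, Rpl23a-ps14 and Rpl31-ps10 with 21 counts each, and just outside it Rpl31-ps17 and Rps13-ps4 with 19 counts each. Each copy was set beside its parent, the gene whose symbol precedes the suffix, and the 122 copies had 44 parents. Of the 94 named copies left out, 13 had no count in any library.

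The libraries came from mouse bone marrow cells depleted of lineage-positive cells and kept in culture with growth factors for blood progenitors. There were 3 libraries of Alkbh5-deficient cells (Vav-iCre+; Alkbh5fl/fl) fed 100 µM 4-thiouridine (s4U) for 2 h, called KO fed, and 3 of wild-type (WT) cells fed in the same way, called WT fed. One further KO library and 1 further WT library had no s4U (KO unlabelled and WT unlabelled). ALKBH5 is an enzyme that removes the m6A mark from RNA, and Vav-iCre deletes the floxed gene in blood-forming cells but not in stroma. In TimeLapse-seq, s4U enters new RNA and chemistry then recodes it so that labelled U is read as C. All 8 libraries, the unlabelled ones included, were made from total RNA after this chemistry with a stranded low-input kit. The labels do not tie the libraries of a group to separate animals, and every p-value below therefore reflects library-to-library spread that may be technical in part.

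Gene counts ran from 5723245 to 8615997 per library. Alkbh5 had 0, 1 and 1 counts in KO fed libraries, 1061 to 1479 in WT fed libraries, 1 in the KO unlabelled library and 1263 in the WT unlabelled library. Levels are given as CPM, counts scaled to a library total of 1000000. All 11 stem and progenitor markers exceeded 1 CPM, but so did all 4 markers each of neutrophils, of mast cells and basophils, and of monocytes and macrophages. The same held for all 4 markers each of erythroid cells, B cells, T and NK cells, and stroma and endothelium, and for 2 of 3 megakaryocyte markers. Summed neutrophil markers spanned 945 to 1329 CPM in KO fed and 622 to 2199 CPM in WT fed, against 935 and 969 CPM in KO and WT unlabelled libraries. The summed level of 4 stroma and endothelium markers spanned 98.9 to 681 CPM in KO fed and 103 to 1923 CPM in WT fed. It was 513 CPM in the KO unlabelled and 507 CPM in the WT unlabelled library. The part of these cells in the results below was not tested, and in bulk RNA fewer cells of a type and less RNA per cell cannot be told apart. Both unlabelled libraries held Xist (8770 counts in KO, 9147 in WT) together with the Y-linked Ddx3y (511 and 299 counts), whereas each fed library had 1 of the pair at 2 counts or fewer. Replicate 2 of KO fed and of WT fed had Xist, and replicates 1 and 3 had Ddx3y, so fed libraries of a group came from sources of different sex, matched by number between the genotypes. Feeding and the source of the cells therefore cannot be told apart. Replicate 3 of WT fed stood apart, since the transcript Gm26917 took 14.2% of its gene counts, against 6.33% to 8.34% in the other 7. Replicate 1 of both fed groups also stood apart, with 37.6% of all counts on no feature in KO and 38.3% in WT, against 48.9% to 52.1% in the other 6 libraries.

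How copy and parent compare is shown with short stretches of annotated transcripts (GENCODE M21, build GRCm38), printed 5′ to 3′. Among gap-free coding stretches, each was chosen where Rpl36a-ps3, Rpsa-ps5, Rpl23a-ps3 or Rpl3-ps1 differed most from its parent. The differences printed are thus not typical of the whole copy. Capitals in a copy mark bases that differ from the parent, and capitals in the parent mark positions where any printed relative differs. The first set covers coding bases 93 to 182 of Rpl36a, on chromosome X. It is shown because Rpl36a-ps2, one of the copies with most counts, is identical to its parent, while Rpl36a-ps3 resembles another coding gene. The copies lie at chr3:145879112-145879201 on the plus strand (Rpl36a-ps2), chr14:98994119-98994208 on the minus strand (Rpl36a-ps1) and chr6:136488899-136488988 on the plus strand (Rpl36a-ps3), and Rpl36al is a coding gene on chromosome 12.
Rpl36a: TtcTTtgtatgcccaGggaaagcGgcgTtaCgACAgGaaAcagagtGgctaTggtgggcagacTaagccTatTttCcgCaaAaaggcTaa
Rpl36a-ps2: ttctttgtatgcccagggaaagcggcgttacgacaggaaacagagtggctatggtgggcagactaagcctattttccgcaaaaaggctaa
Rpl36a-ps1: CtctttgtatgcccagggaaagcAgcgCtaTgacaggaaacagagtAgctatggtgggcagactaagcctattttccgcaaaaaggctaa
Rpl36a-ps3: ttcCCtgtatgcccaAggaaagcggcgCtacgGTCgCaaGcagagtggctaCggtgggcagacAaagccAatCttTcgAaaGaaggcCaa
Rpl36al: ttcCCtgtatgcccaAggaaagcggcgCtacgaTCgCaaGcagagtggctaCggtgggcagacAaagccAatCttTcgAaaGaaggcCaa
In this stretch Rpl36a-ps2 differed from Rpl36a at 0 bases, Rpl36a-ps1 at 5 and Rpl36a-ps3 at 17, against 16 for Rpl36al. Over its full 321 bases Rpl36a-ps3 was 99.7% identical to Rpl36al, with 1 mismatch, and 87.5% identical to Rpl36a, with 40 mismatches. The symbol thus names a parent that is not the closest coding gene.

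The second set covers coding bases 299 to 388 of Rpsa, on chromosome 9, and shows a family of 8 copies, 7 of which aligned, at identities of 92.4% to 99.3%. The copies lie at chr3:150073155-150073244 on the minus strand (Rpsa-ps10), chr10:128776864-128776953 on the minus strand (Rpsa-ps2), chr2:28477463-28477552 on the plus strand (Rpsa-ps9) and chr11:28957022-28957111 on the plus strand (Rpsa-ps5).
Rpsa: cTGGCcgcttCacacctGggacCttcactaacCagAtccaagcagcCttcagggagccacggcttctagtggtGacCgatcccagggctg
Rpsa-ps10: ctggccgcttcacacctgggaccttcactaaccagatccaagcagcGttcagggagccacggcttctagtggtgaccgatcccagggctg
Rpsa-ps2: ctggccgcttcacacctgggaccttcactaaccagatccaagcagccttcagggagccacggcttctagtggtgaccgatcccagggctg
Rpsa-ps9: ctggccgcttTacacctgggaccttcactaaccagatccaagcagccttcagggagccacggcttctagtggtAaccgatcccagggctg
Rpsa-ps5: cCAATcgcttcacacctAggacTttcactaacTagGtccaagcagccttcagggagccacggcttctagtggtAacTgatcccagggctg
Here Rpsa-ps2 differed at 0 bases, Rpsa-ps10 at 1, Rpsa-ps9 at 2 and Rpsa-ps5 at 10, so this stretch tells Rpsa-ps5 apart from Rpsa but not Rpsa-ps2. The last pairs hold the only mismatch of Rpl23a-ps3, the copy with most counts, at chr14:34170740-34170799 on the plus strand, and 1 of the 2 mismatches of Rpl3-ps1, at chrX:13202598-13202657 on the plus strand.
Rpl23a: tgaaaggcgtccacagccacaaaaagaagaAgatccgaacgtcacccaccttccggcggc
Rpl23a-ps3: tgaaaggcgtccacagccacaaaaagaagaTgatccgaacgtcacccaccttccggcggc
Rpl3: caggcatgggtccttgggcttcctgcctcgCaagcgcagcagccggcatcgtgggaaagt
Rpl3-ps1: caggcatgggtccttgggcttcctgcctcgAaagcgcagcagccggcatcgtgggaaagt
Counted from 1 at the first printed base, the substitution was A31T in Rpl23a-ps3 and C31A in Rpl3-ps1.

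Of the 122 copies, 118 were matched to the annotation, on 20 chromosomes, and 5 lay on the chromosome of the parent. The annotation called 109 of them processed pseudogenes, 5 transcribed processed pseudogenes and 4 protein-coding genes (Rpl9-ps6, Rpl36a-ps1, Rps12-ps3 and Rpl10-ps3, named here because the class runs against the suffix). A single exon made up 114, and lengths ran from 213 to 1214 bases with a median of 488. Between genes lay 72 copies, with 44.3% of the copies' counts. Introns held 22 copies on the strand opposite to the host gene and 18 on its own strand, and 6 overlapped an exon of another gene. Intron reads of a host can add to a copy on the same strand, and host levels varied widely. Rpl36a-ps2 had 4842 counts inside Ddah1, a gene with 5 counts, whereas Rpl36-ps12 had 551 counts inside Sumf1, a gene with 1589. Among same-strand hosts with counts, only Ddah1, Heph, Ctla4 and Rab39 had fewer than their copy. Gene counts of a host do not measure its intron reads, and the part of such reads was not tested. These hosts were named after their values were seen.

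Identity to the parent was high among the 122 copies, with a median of 98.8% over the 117 that aligned, against 94.7% over the 90 aligned copies with under 20 counts. All 13 copies identical to the parent over their whole annotated length reached 20 counts. Of all copies with 99% identity or more, these 13 included, 51 of 58 did, of those from 97% to 99%, 43 of 60, and of those below 97%, 23 of 89. Among only the copies that reached 20 counts, median counts were 602 for identical copies and 473 for the others from 99%. They were 99 from 97% to 99% and 49 below 97%, and the limit of 20 counts raises such medians. The identical copies and the others from 99% together carried most counts, with 21.1% and 55.9% of the sum over copies, while copies below 97% carried 2.86%. Since identity was not used to choose the copies but counts were, these values describe the tables and were not tested.

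**Figure D1:**
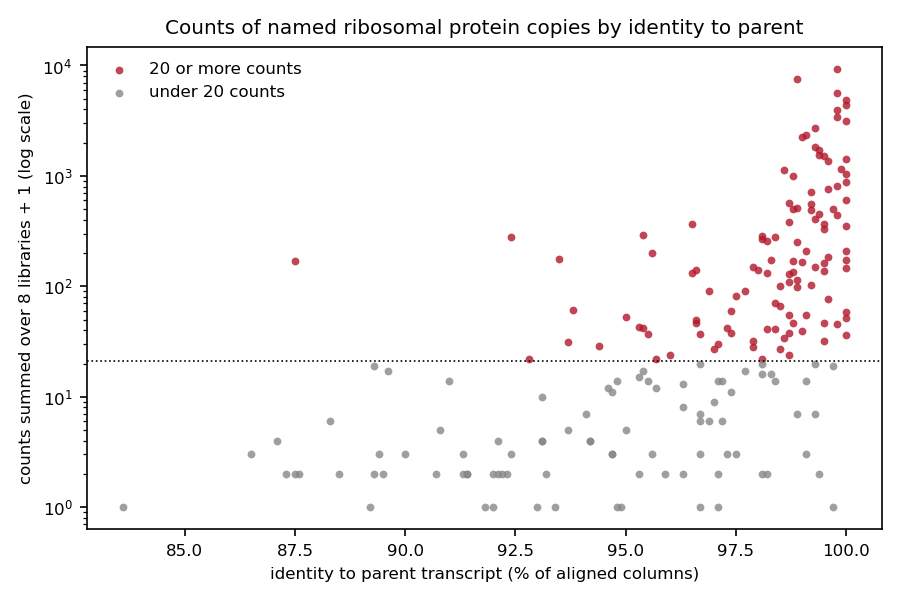
Counts summed over 8 libraries plus 1 (log scale) against identity to the parent transcript in percent of aligned columns, 1 point per named copy, for the 204 of 207 aligned copies at 80% or more. Red points have at least 20 counts and grey points fewer (dotted line), and the 21 copies above 1000 counts all sit at 98.6% identity or more.

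How far a read could be told apart was read from all 50-base windows of each copy. In 20 of 118 copies no window was found only in that copy, so each such window also occurs in another annotated transcript, and the median share of windows found nowhere else was 28.4%. Rpl36a-ps2, Rps23-ps1 and Rps6-ps4 had 4842, 4391 and 3156 counts with 0% of windows of their own. At the other end Rpsa-ps5 had 83.5% and Rps6-ps1 51.1%. On a copy with no window of its own, any 50 bases also occur in another annotated transcript, of the parent or of another gene. Such bases alone do not tell where a read came from. The sources used here do not give the read length or say how the aligner placed reads with several matches.

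The 12 copies with most counts held 62.6% of the 82191 counts on copies. In CPM per kilobase of transcript, Rpl23a-ps3 led with 340 CPM per kb, set against 964 for Rpl23a, a large-subunit protein at the exit tunnel for the new chain. Rpl36a-ps2 followed with 259 CPM per kb and Rps27a-ps2 with 205, the parent of the last being translated as a fusion of ubiquitin with a small-subunit protein. Rpl14-ps1 reached 201 and Rps23-ps1 176 CPM per kb. The remaining 7 of the 12 (Rpl19-ps11, Rps26-ps1, Rps10-ps2, Rps6-ps4, Rpl3-ps1, Rpl17-ps10 and Rpsa-ps10) lay between 98.9 and 54.6 CPM per kb.

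Relative to the parent and per length, Rps10-ps2 stood highest at 65.5%, followed by Rpl21-ps15 at 40.7%, Rpl14-ps1 at 39.9% and Rpl36a-ps2 at 37.5%. Rpl21-ps15 held 10.6% of Rpl21 by counts, since the Rpl21 transcript used has 1856 bases and the copy 483. Rpl19-ps9 stood lowest at 0.0342%, then Rpsa-ps12 at 0.0437%, Rps6-ps2 at 0.0453% and Rpl29-ps2 at 0.0648%. The value for Rps10-ps2 is raised by how the parent was counted, because 10393 counts were set aside as ambiguous between Rps10 and the overlapping Gm49804, against 4466 counts on Rps10 itself. By counts alone Rps10-ps2 held 50.5% of Rps10, and 15.2% of Rps10 plus those ambiguous counts. By family, copies summed to 61.8% of the parent's counts for Rps10, again with the ambiguous counts left out of the parent. Next came 29.9% of the parent's counts for Rpl23a, then 29.1% for Rpl17, 27.4% for Rpl36a, 25.8% for Rpl14 and 23.5% for Rps27a. The families with most members were Rpl21 and Rpsa, with 8 each, and their copies held 20.6% and 2.45% of the parent's counts.

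All copies together took 0.146% to 0.160% of gene counts in KO fed libraries, 0.130% to 0.154% in WT fed libraries and 0.119% in each unlabelled library. Their 44 parents took 2.61% to 2.96% in KO fed, 2.67% to 2.91% in WT fed, 2.15% in the KO unlabelled and 2.20% in the WT unlabelled library. Copies and parents were thus both a larger share in every fed library than in either unlabelled one. As a share of their parents' counts, the copies held 5.39% to 5.67% in KO fed, 4.70% to 5.72% in WT fed, 5.55% in KO unlabelled and 5.42% in WT unlabelled libraries, and these ranges overlap.

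The comparison of fed with unlabelled libraries covers the s4U feed together with the source of the cells, which cannot be told apart here. Most copies and all parents had higher values in fed libraries, but no copy passed the test. With genotype in the model, edgeR's quasi-likelihood test called 0 of the 95 copies that passed its filter on low counts at a Benjamini-Hochberg adjusted p of 0.05 (0.0267% of all 14988 genes tested were called). The smallest adjusted p of a copy was 0.165 (edgeR). At an unadjusted edgeR p under 0.05 there were 29 copies higher and 0 lower, against 9.53% of all genes higher and 10.0% lower. DESeq2 called 3 copies higher, Rpl3-ps1, Rpsa-ps10 and Rpl17-ps8, against 2.21% of all genes. It gave no adjusted p to copies with 405 counts or fewer, so most of the 95 could not be called. The share of all genes likewise includes genes without an adjusted p. In 35 of the 95 copies every fed library exceeded both unlabelled ones, against 14.7% of all genes, and 0 showed the opposite, against 16.2% of all genes. Every fed library also exceeded both unlabelled ones in 29 of 44 parents and 58 of 79 ribosomal protein genes without the suffix. The number was 191 of 900 for other processed pseudogenes. Of these 3 lists, 26, 51 and 153 genes were higher at an unadjusted edgeR p under 0.05. The copies thus shared this direction with ribosomal protein genes.

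The median log2 fold change, fed over unlabelled, was 0.53 over the 95 copies tested and 0.48 over all 122 when no filter was applied. Over the 44 parents it was 0.38, over 79 ribosomal protein genes without the suffix 0.42, over 900 other processed pseudogenes tested 0.33, and over all genes 0.03. Of these, 44 of 44 parents and 79 of 79 ribosomal protein genes had a value above 0, as did 89 of the 95 copies, against 52.1% of all genes. Copies and parents thus lay on the same side, and the difference between the copies' and the parents' medians was not tested.

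**Figure D2:**
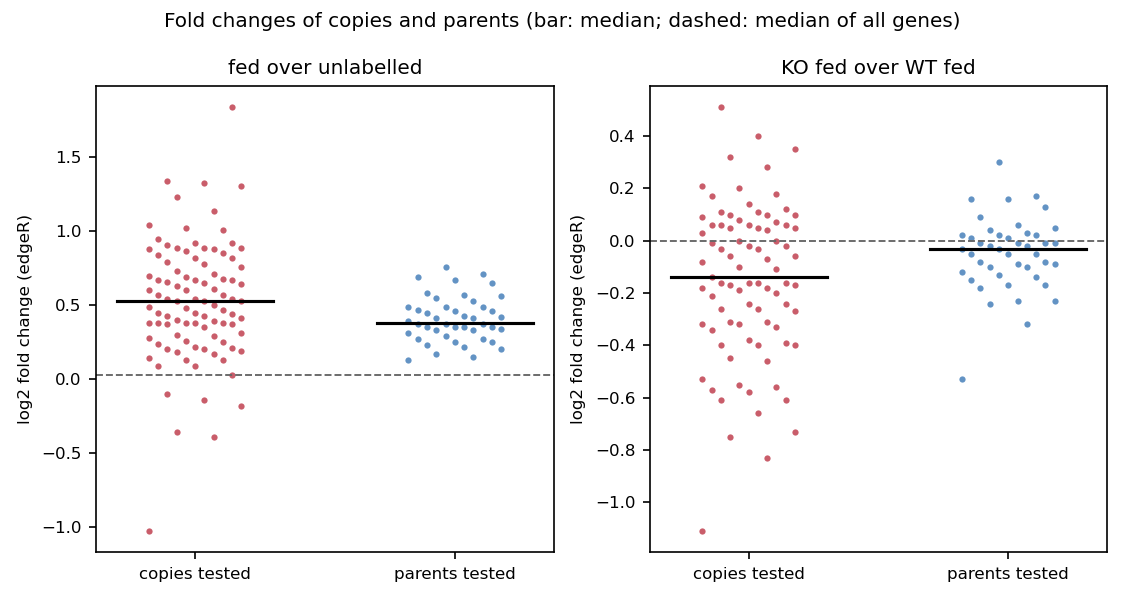
Log2 fold changes (edgeR) of copies (red) and parents (blue), 1 point per gene, for fed over unlabelled libraries (left, 95 copies and 44 parents) and KO fed over WT fed libraries (right, 83 copies and 44 parents). Black bars are medians and the dashed line is the median of all genes. On the left the copies' median is 0.53 and the parents' 0.38, and on the right they are -0.14 and -0.03.

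Rpl3-ps1, a copy of the gene for a large-subunit protein close to the peptidyl transferase centre, had the smallest p of the copies. It had 76.5, 76.2 and 68.3 CPM in KO fed and 69.8, 70.9 and 113 CPM in WT fed libraries, against 42.1 CPM in the KO unlabelled and 39.3 CPM in the WT unlabelled library. All 6 fed libraries lay above both unlabelled ones, and replicate 3 of WT fed was highest. Its log2 fold change came to 0.95 ± 0.21 (SE, edgeR adjusted p = 0.165, DESeq2 adjusted p = 0.00705), and 0.83 without that library. Its parent Rpl3 had 1215 to 1311 CPM in KO fed, 1216 to 1538 CPM in WT fed and 929 and 943 CPM in the KO and WT unlabelled libraries, which gave 0.49 ± 0.15 (SE) on the same scale at an edgeR adjusted p of 0.170.

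Rpsa-ps10 is a copy of Rpsa, a small-subunit protein also known as a laminin receptor. Its level was 51.3, 55.8 and 50.3 CPM in KO fed and 54.3, 43.0 and 71.5 CPM in WT fed libraries, against 31.6 CPM in the KO unlabelled and 28.9 CPM in the WT unlabelled library. Again the groups did not overlap, and the log2 change was 0.84 ± 0.20 (SE, edgeR adjusted p = 0.165, DESeq2 adjusted p = 0.0156). For the parent the value was 0.71 ± 0.23 (SE) at an edgeR adjusted p of 0.174, close to that of its copy.

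Rpl17-ps8 lies in an intron of Heph, which had 25 counts, and copies the gene of another exit-tunnel protein. It had 10.3, 9.03 and 10.3 CPM in KO fed and 12.5, 9.80 and 8.55 CPM in WT fed libraries, against 4.25 CPM in the KO unlabelled and 5.83 CPM in the WT unlabelled library. The log2 fold change was 1.01 ± 0.25 (SE, edgeR adjusted p = 0.165, DESeq2 adjusted p = 0.0269), against 0.47 ± 0.15 (SE) for Rpl17. Rps6-ps1 copies Rps6, the small-subunit protein phosphorylated by S6 kinases, and had 5.06 to 6.38 CPM in KO fed and 4.47 to 7.38 CPM in WT fed libraries, against 2.62 CPM in the KO unlabelled and 2.20 CPM in the WT unlabelled library. Its log2 fold change was 1.23 ± 0.33 (SE, edgeR adjusted p = 0.165), DESeq2 gave it no adjusted p, and Rps6 itself had 0.65 ± 0.16 (SE). Both Rpl17-ps8 and Rps6-ps1 had no overlap between fed and unlabelled libraries.

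Among the 12 copies with most counts, log2 fold changes of fed over unlabelled libraries ran from 0.18 for Rpl36a-ps2 to 0.95 for Rpl3-ps1, all above 0. Several of the small values rest on single libraries: Rpl36a-ps2 had 0.09 without replicate 1 of KO fed and 0.07 without replicate 1 of WT fed. Rpl14-ps1 had 141, 143 and 141 CPM in KO fed and 128, 132 and 146 CPM in WT fed libraries, against 105 CPM in the KO unlabelled and 112 CPM in the WT unlabelled library, which is 0.35 ± 0.13 in log2 units (SE) at an edgeR adjusted p of 0.200. Its parent Rpl14 had the same value, 0.35 ± 0.14 (SE). Rpl23a-ps3 varied most of these 12, with 278, 135 and 167 CPM in KO fed and 242, 144 and 49.7 CPM in WT fed libraries, against 133 CPM in the KO unlabelled and 124 CPM in the WT unlabelled library. Its parent followed the same order within each group, with 932, 474 and 528 CPM in KO fed and 858, 463 and 235 CPM in WT fed libraries, against 435 and 391 CPM in the KO and WT unlabelled ones. In both genes replicate 1 of each genotype was high and replicate 3 of WT fed low, and the part of the lower no-feature share of replicate 1 was not tested. The log2 fold change of Rpl23a-ps3 was 0.38 ± 0.48 (SE, edgeR adjusted p = 0.695), and it was 0.21 without replicate 1 of KO fed, 0.10 without replicate 1 of WT fed, 0.59 without replicate 3 of WT fed and 0.23 without the KO unlabelled library.

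Rps27a-ps2 (chr9:83409660-83410126, plus strand) had 106, 104 and 106 CPM in KO fed and 107, 106 and 83.7 CPM in WT fed libraries, against 81.1 CPM in the KO unlabelled and 69.7 CPM in the WT unlabelled library. All fed libraries exceeded both unlabelled ones, by 0.44 ± 0.14 on the log2 scale (SE, edgeR adjusted p = 0.174). Rpl19-ps11 had 66, 66.8 and 68.8 CPM in KO fed and 58.1, 63.6 and 51.5 CPM in WT fed libraries, against 49.2 CPM in the KO unlabelled and 43.7 CPM in the WT unlabelled library. Here too fed and unlabelled libraries did not overlap, and the 3 KO fed values lay above the 3 WT fed ones, a difference of 0.21 ± 0.15 on the log2 scale (SE, edgeR adjusted p = 1.00).

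Rps26-ps1 and Rps10-ps2 copy genes of small-subunit proteins that are mutated in some patients with Diamond-Blackfan anaemia. Rps26-ps1 had 63.3, 34.6 and 37 CPM in KO fed and 50.3, 41.3 and 24.7 CPM in WT fed libraries, against 35.3 CPM in the KO unlabelled and 37.2 CPM in the WT unlabelled library. Rps10-ps2 (chr16:20822145-20822640, minus strand) had 52.8, 38.2 and 34.7 CPM in KO fed and 53.1, 37.2 and 26.4 CPM in WT fed libraries, against 32.8 CPM in the KO unlabelled and 34.5 CPM in the WT unlabelled library. In both, fed and unlabelled libraries overlapped, replicate 1 was the highest of each genotype and replicate 3 of WT fed was the lowest of all. Their log2 fold changes of fed over unlabelled libraries, 0.20 for Rps26-ps1 and 0.26 for Rps10-ps2, were 0.04 and 0.17 without replicate 1 of KO fed, and 0.10 and 0.13 without replicate 1 of WT fed. Rps23-ps1, whose parent makes a protein of the decoding centre, was also lowest in that library, with 64.1 to 97 CPM in KO fed and 53 to 86.6 CPM in WT fed libraries, against 63.1 CPM in the KO unlabelled and 71.4 CPM in the WT unlabelled library. Rpl17-ps10 showed the opposite, since replicate 1 was the lowest of each fed group (28.1 CPM in KO fed and 23.6 CPM in WT fed) and replicate 3 of WT fed the highest at 45.1 CPM, against 23.3 CPM in the KO unlabelled and 21.5 CPM in the WT unlabelled library.

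**Figure D3:**
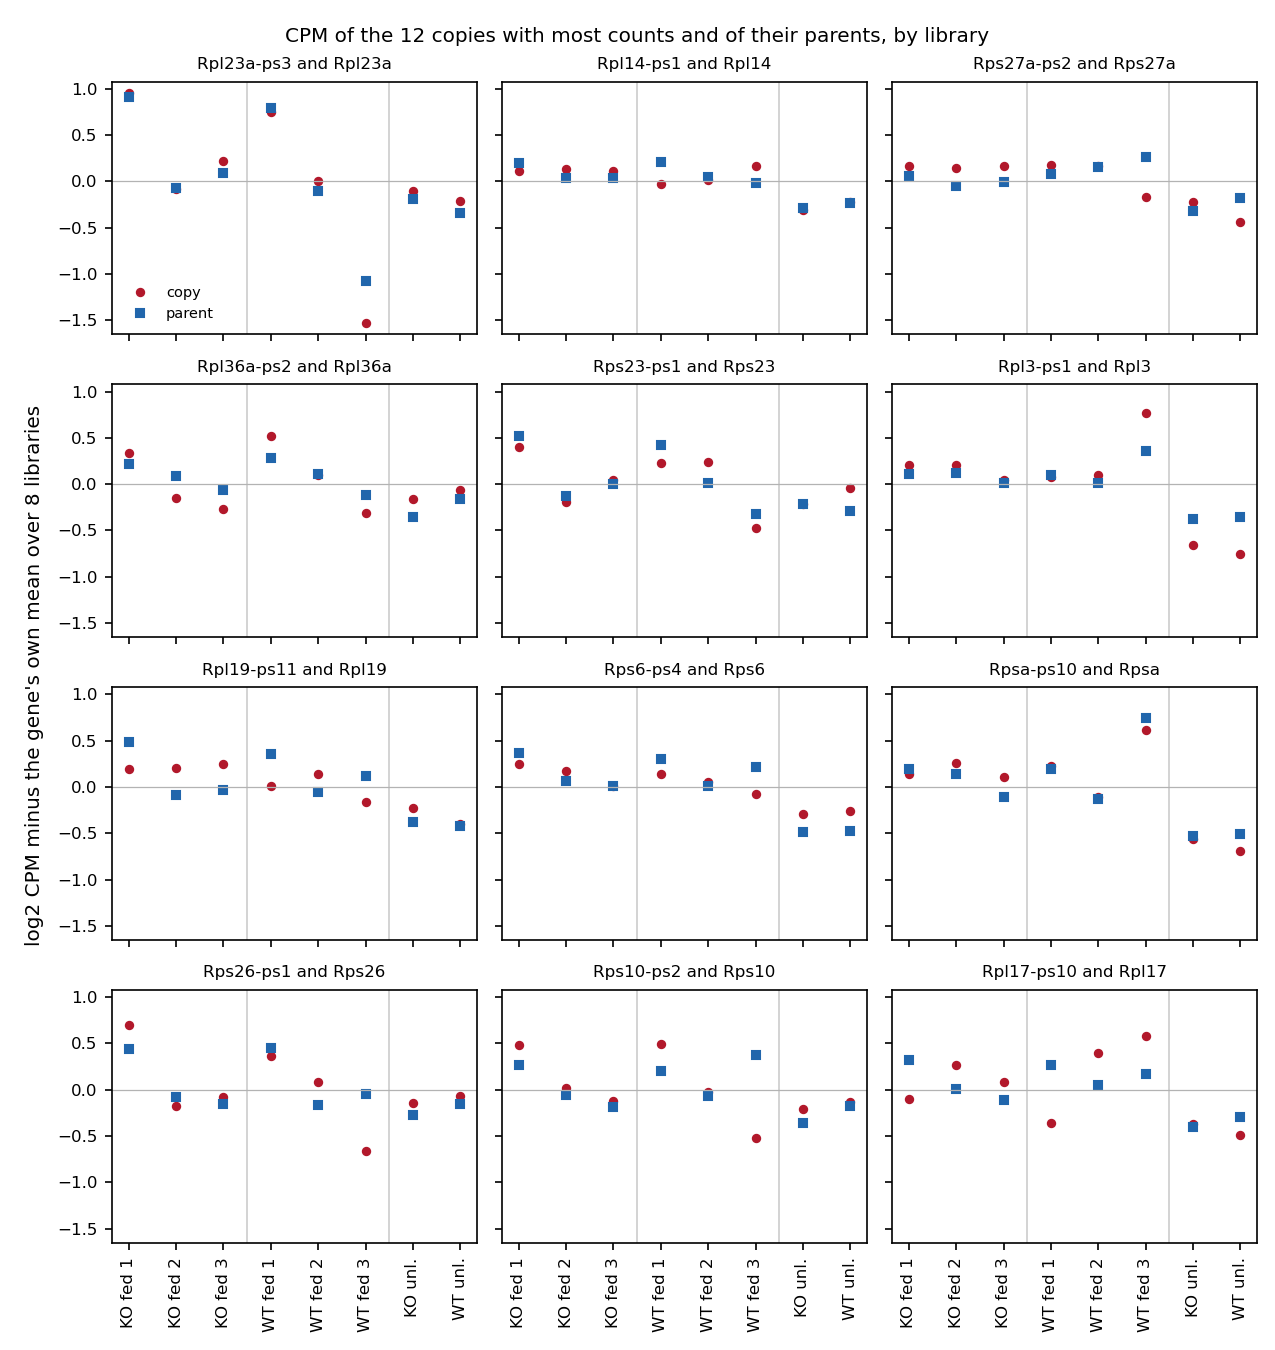
Log2 CPM minus the gene's own mean over the 8 libraries, for the 12 copies with most counts (red circles) and their parents (blue squares), with KO fed, WT fed and the unlabelled (unl.) libraries from left to right. Copy and parent lie close together in most libraries, and the widest gaps are in replicate 3 of WT fed, where Rps10-ps2 lies below Rps10.

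The ratio of each copy to its parent within a library removes what both share. On a log2 scale, with 0.5 counts added to both, the median difference of fed minus unlabelled libraries was 0.06 over the 122 copies, with 73 above 0, and 0.05 over the 53 copies with at least 200 counts. At the median, copy and parent thus differed between fed and unlabelled libraries by about the same factor. For 8 copies the ratio in every fed library exceeded both unlabelled ones, and for 6 it was below both. Among the 53 copies with at least 200 counts these numbers were 5 and 2, and 3 of the 6 had 30 counts or fewer. With no ratio of this kind for all genes, the counts have no background and are a description. Rpl3-ps1 was among the 8, at 5.87%, 5.81% and 5.62% of Rpl3 in KO fed and 5.39%, 5.83% and 7.33% in WT fed libraries, against 4.53% in the KO unlabelled and 4.16% in the WT unlabelled library. Rpl17-ps8 was another, at 3.12% to 4.17% of Rpl17 in KO fed and 2.87% to 3.91% in WT fed libraries, against 2.12% in the KO unlabelled and 2.69% in the WT unlabelled library. Rps6-ps4, identical to Rps6 over the aligned columns, was among the 6, at 4.87% to 5.69% in KO fed and 4.32% to 5.44% in WT fed libraries, against 6.01% in the KO unlabelled and 6.12% in the WT unlabelled library. Rpl36a-ps3 was among the 8 by its ratio to Rpl36a, and as a share of its closest gene Rpl36al it held 5.53% to 8.95% in KO fed and 6.13% to 8.19% in WT fed libraries, against 4.75% in the KO unlabelled and 2.44% in the WT unlabelled library.

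Because recoded s4U reads as C, copies were also grouped by how they differ from the parent, which was done with the results known. The 49 tested copies with at least 1 site that is T in the parent and C in the copy had a median ratio difference, fed minus unlabelled, of 0.17 on the log2 scale, with 32 above 0. The 27 with other substitutions only had 0.03, with 15 above 0, and the 14 with no substitution also 0.03, with 9 above 0. Copies with a C-to-T site gave nearly the same split, 0.16 for the 58 that held one against 0.05 for the 18 that did not. For A-to-G sites the medians were 0.10 for the 33 copies with one and 0.13 for the 43 without, and for G-to-A sites the order was turned, with 0.09 for the 56 with one and 0.21 for the 20 without. Copies with a T-to-C site also had more substitutions in all (median 8 against 3), and none of these differences was tested.

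The comparison of KO fed with WT fed libraries asks whether copies changed without ALKBH5. No copy passed the test and values lay on either side of 0. The edgeR quasi-likelihood test called 0 of 83 copies (0.00750% of 13342 genes tested were called), DESeq2 also 0, and an unadjusted edgeR p under 0.05 was found for 3 copies, all lower in KO, against 0.735% of all genes lower. In 2 copies every KO fed library lay above every WT fed one, against 2.62% of all genes, and in 3 below, against 3.06% of all genes. A value below 0 was found for 54 of the 83 copies, against 49.8% of all genes. It was also found for 29 of the 44 parents and 55 of 79 ribosomal protein genes without the suffix. The median log2 fold change was -0.14 over the 83 copies, -0.14 over all 122 with no filter, -0.03 over the parents and 0.00 over all genes. Without replicate 3 of WT fed the copies' median was -0.07, and with the replicate number as a block -0.12.

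Copies of Rps2, a small-subunit protein at the messenger entry, and of Rpsa and Rps13 had the smallest p-values here. Rps2-ps6 had 5.24, 4.79 and 5.51 CPM in KO fed libraries, against 6.49, 7.96 and 13.4 CPM in WT fed libraries, with no overlap. The log2 fold change was -0.83 ± 0.33 (SE, edgeR adjusted p = 1.00), and -0.48 without replicate 3 of WT fed. Rps2-ps13 had 10.3, 12 and 11 CPM in KO fed libraries, against 13.5, 14.3 and 22.1 CPM in WT fed libraries, for a log2 change of -0.58 ± 0.25 (SE) at an edgeR adjusted p of 1.00, or -0.32 without that library. Their parent Rps2 shared the high value, with 761, 972 and 743 CPM in KO fed libraries, against 860, 929 and 1791 CPM in WT fed libraries, and its log2 fold change was -0.53 ± 0.29 (SE), or -0.11 without replicate 3 of WT fed.

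Rpsa-ps5, the most divergent of the Rpsa copies printed above, had 2.84, 5.20 and 3 CPM in KO fed libraries, against 4.66, 5.65 and 13.8 CPM in WT fed libraries. These ranges overlap, and the log2 change of -1.11 ± 0.48 (SE, edgeR adjusted p = 1.00) became -0.49 without replicate 3 of WT fed. Rps13-ps1 had 2.39, 2.19 and 3.13 CPM in KO fed libraries, against 3.5, 4.5 and 5.05 CPM in WT fed libraries, for a log2 change of -0.75 ± 0.35 (SE) at an edgeR adjusted p of 1.00, or -0.63 without that library. Its parent did not share this, with 142, 114 and 121 CPM in KO fed libraries, against 119, 136 and 112 CPM in WT fed libraries. In the ratio to the parent, the median of KO fed minus WT fed libraries was -0.08 over the 122 copies, with 50 above and 72 below 0, and 0.01 over the 53 copies with at least 200 counts. An interaction term tested whether the difference between fed and unlabelled libraries varied with genotype. It was called by edgeR for 0 of 95 copies (0.00% of all genes were called). An unadjusted edgeR p under 0.05 was found for 0 of them, against 0.160% of all genes, and DESeq2 also called 0. In 3 of the 95 copies all fed libraries lay on one side of the unlabelled library in KO and on the opposite side in WT, against 2.16% of all genes.

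Library by library, the ratios showed 1 library apart. Over the 53 copies with at least 200 counts, each ratio was set against its own mean over the 8 libraries. In replicate 3 of WT fed, 12 of 53 copies deviated by more than 0.5 on the log2 scale, with an SD of 0.43, against 1 to 5 copies and an SD of 0.18 to 0.31 in the other 7 libraries. The deviations ran in both directions. Rps10-ps2 was at 26.3% of Rps10 there, against at least 50.5% in each of the other 7 libraries, and with the ambiguous counts added to Rps10 it was at 9.52% against 14.6% to 16.9%. Rpl21-ps8, named after its values were seen as the copy furthest above its other fed libraries, was at 19.7% of Rpl21 there, against 5.24% to 8.27% in the other 7 libraries. The share of Gm26917 in that library is given above, and its part in these ratios was not tested.

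**Figure D4:**
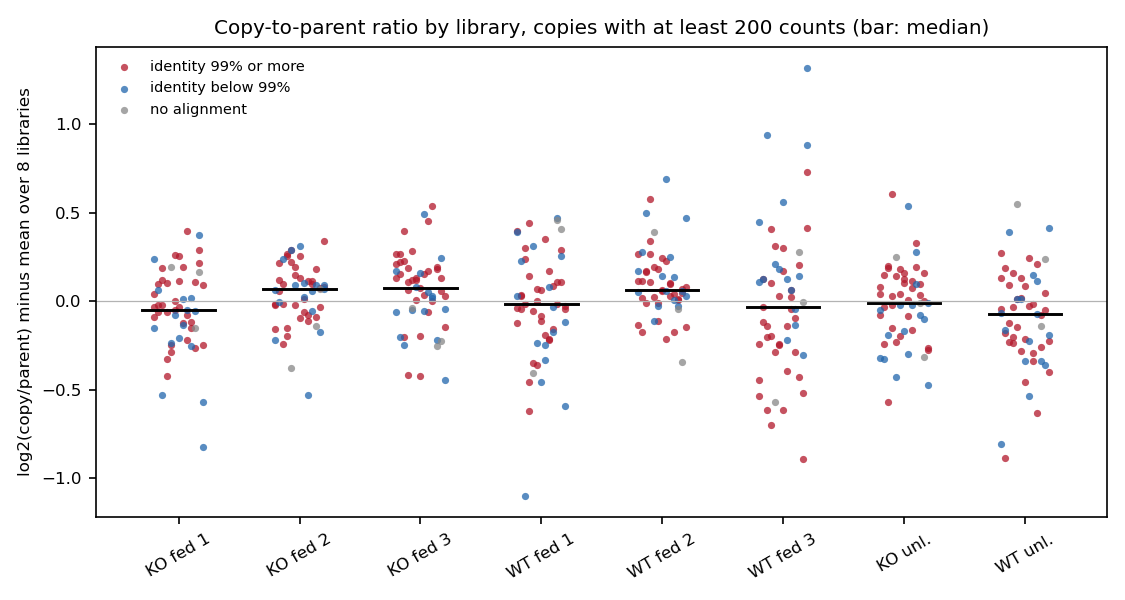
Log2 ratio of copy to parent counts minus its mean over the 8 libraries, 1 point per copy for the 53 copies with at least 200 counts, by library from KO fed to WT fed to unlabelled (unl.). Red marks identity of 99% or more, blue below 99%, grey no alignment, and bars are medians. Points scatter most in replicate 3 of WT fed (SD 0.43).

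Across the same 53 copies the level varied more than the ratio. The SD over the 8 libraries had a median of 0.39 for the log2 level of the copy and 0.24 for the log2 ratio to the parent, and the ratio varied less in 46 of 53. The likeness of profiles was measured as the SD of the log2 ratio to each of 79 ribosomal protein genes, where a small SD means a similar profile. The own parent was nearest for 10 copies and among the nearest 5 for 21, and its median rank was 13. Rpl23a-ps3 and Rpsa-ps10 were nearest to their parents, with an SD of 0.19 and 0.13. Rps6-ps4, identical to Rps6, was nearest to Rpl14 (SD 0.07), and Rps6 ranked 33 with an SD of 0.18.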

How the data were processed

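Raw read counts per gene symbol were deposited by the authors, 1 file per library, and used as counts without change. Cutadapt, HISAT2, Picard, HTSeq, STAR and DESeq2 with mm10 and GRCm38 are named in the submitters' processing notes. The sources used here give no version or role for them, no strand setting and no treatment of reads with several matches. Rows for no feature held 37.6% to 52.1% of counts and rows naming several genes 0.654% to 0.984%, and both stayed out of library sizes.

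Counts were tested with edgeR 4.0.16 (TMM, filterByExpr, robust quasi-likelihood, Benjamini-Hochberg) over all genes, fed against unlabelled with genotype as covariate over 8 libraries and KO against WT over the 6 fed ones. DESeq2 1.42.0 was an alternative, with others of scaling, filter, threshold and left-out libraries. CPM used TMM library sizes. Copies were aligned to transcripts of GENCODE M21 (GRCm38) with BLAST+ 2.17.0. Levels per kilobase used the copy's transcript and the parent transcript it aligned to best, and mean CPM over the 8 libraries. A library's deviations from its group mean over genes correlated between same-numbered KO and WT fed libraries (r = 0.62, 0.26 and 0.16 for numbers 1, 2 and 3). The main KO against WT test left this pairing out, and the values for single copies come from that unpaired fit. The replicate number entered only as a block in an alternative fit. Where the pairing comes from is not stated in the labels.

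The copies and lists were chosen with earlier results of these data known. Text names the 12 copies with most counts, those past a threshold, the 4 smallest p-values per contrast, the 4 highest and lowest ratios to the parent, neighbours of the count limit, their parents, and others where said. A neighbour of the count limit is not reported here. For the 4 copies without annotation no sequence was used.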

Additional observations from a re-analysis of the deposited data

Results flagged for a closer look

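In 5 of the 122 copies every fed library of one genotype lay on one side of its unlabelled library, while every fed library of the other genotype lay on the opposite side. Each value below is the difference in mean CPM, fed minus unlabelled, in KO minus that in WT. For Rps10-ps1 it was -4.41 CPM, with 9.43, 8.35 and 7.26 CPM in KO fed against 9.70 CPM in KO unlabelled, and 7.83, 8.53 and 12.2 CPM in WT fed against 6.48 CPM in WT unlabelled. The interaction term had a log2 value of -0.77 ± 0.55 (SE, edgeR adjusted p = 1.00). For Rps12-ps4 it was -1.63 CPM, with an interaction of -1.04 ± 0.88 (SE, edgeR adjusted p = 1.00), and for Rpl31-ps11 it was 1.04 CPM, with an interaction of 1.69 ± 1.27 (SE, edgeR adjusted p = 1.00). The other 2 had too few counts for the test, Rpl13-ps6 at -0.508 CPM and Rpl21-ps14 at 1.10 CPM, and for them the difference was not tested. Among the copies tested this was 3 of 95, against 2.16% of all genes, and each rests on 1 unlabelled library per genotype.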

How the results depend on the processing

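With edgeR, 0 copies were called in each of the 3 contrasts (fed against unlabelled, KO against WT, and their interaction). This held under another scaling, other filters, an adjusted p of 0.1, and with each fed library left out (0 to 0 called). The same held for fed against unlabelled within each genotype or without either unlabelled library, and for KO against WT fitted over 8 libraries. DESeq2 called 3 copies in fed against unlabelled libraries and 0 in the other contrasts, and the cause was not tested. The replicate block called 0 copies with edgeR and 0 with DESeq2 in KO against WT and changed no call. The median ratio to the parent, KO fed minus WT fed, was -0.08 and became 0.01 over copies with at least 200 counts, an alternative chosen after seeing the data that leaves 53 copies. It ran from -0.14 to -0.01 when libraries were left out, and that of fed minus unlabelled from 0.05 to 0.13. Of the values for single copies, 244 kept their direction and side of the threshold and 3, the DESeq2 calls, passed it. For fed against unlabelled libraries, DESeq2 gave no adjusted p to Rps6-ps1 or to other copies with 405 counts or fewer. These could not pass. Counts below 200 per copy, 2 unlabelled libraries and reads that match copy and parent alike limit what can be resolved.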
